A study of Mus musculus with 36 samples.

Results

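The 10 genes described here encode cytosolic chaperones: the small heat shock proteins Hspb1, Hspb6, Hspb7 and Cryab, the Hsp70 proteins Hspa1a, Hspa1b and Hspa8, the Hsp110 protein Hsph1, the Hsp90 protein Hsp90aa1 and the J-domain protein Dnajb1. They were chosen by name, and all 10 of 10 were found among the 18760 uniquely named genes of the expression table. Bulk RNA was sequenced from 6 tissues (heart, skeletal muscle, liver, kidney, lung and tumor) of wild-type C57BL/6 mice bearing MC38 tumors, MC38 being a transplantable colon carcinoma line of this strain. The mice, matched for age and sex, had been given either a high dosage of antibodies against PD1 and CTLA4, receptors that restrain T cells (immune checkpoint blockade, ICB), or control IgG. Each tissue had 3 ICB and 3 IgG libraries, 36 in all, and every group carried the tumor, so no tumor-free mice were measured. The labels do not state whether a group's 3 libraries are 3 different mice, so the error behind each p-value is that between libraries and may be technical in part.

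Heat shock proteins keep other proteins from aggregating and help them fold. Small heat shock proteins bind unfolding proteins without using ATP and hold them in a refoldable state, and in striated muscle several of them sit on the Z-disc and on desmin and titin filaments. Hsp70 proteins bind exposed hydrophobic stretches in cycles of ATP hydrolysis, which J-domain proteins stimulate and which Hsp110 proteins, acting as nucleotide exchange factors, reset, and Hsp90 then takes over kinases and steroid receptors late in folding. Some of these genes are read constantly, as Hspa8 is in nearly all cells, and others, such as Hspa1a and Hspa1b, are the classical genes switched on by the transcription factor HSF1 under heat or protein damage.

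The libraries held 19005189 to 25512980 reads. The tissue labels were checked against markers. Summed over 9 genes, skeletal muscle markers reached 72940 to 109353 FPKM (reads scaled for gene length and library size) in muscle libraries and at most 795 FPKM elsewhere. The sum over 8 cardiomyocyte markers was 13446 to 15396 FPKM in heart and at most 349 elsewhere. Hepatocyte, kidney tubule and lung epithelium markers were likewise highest in their own organ. In the tumor libraries the 6 epithelial markers in the table summed to only 0.76 to 3.52 FPKM, against 506 to 843 FPKM in liver, so the epithelial origin of the tumor line was not visible in these genes. Tumor ICB replicate 2 stood apart, with a skeletal muscle marker sum of 394 FPKM against 5.12 to 18.5 in the other 5 tumor libraries.

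The first question was where each chaperone gene is expressed. The 4 small heat shock proteins were highest in heart or muscle and low in tumor, whereas Hsp90aa1, Dnajb1 and Hsph1 were highest in tumor. Hspa1a and Hspa1b were highest in kidney. Hspa8 was the most even, with a highest tissue mean 2.49 times the lowest. That ratio was 3848 for Hspb7, 486 for Cryab, 177 for Hspb1, 136 for Hspb6, 24.3 for Hspa1a, 12.8 for Hspa1b, 10.6 for Hsp90aa1, 5.11 for Dnajb1 and 5.09 for Hsph1. The summed share of reads on the 10 genes was largest in heart, 0.509% to 0.590%, and smallest in liver, 0.0904% to 0.127%. These are RNA levels in whole tissue, so a tissue with fewer cells of a type and a tissue with less RNA per cell cannot be told apart.

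**Figure D1:**
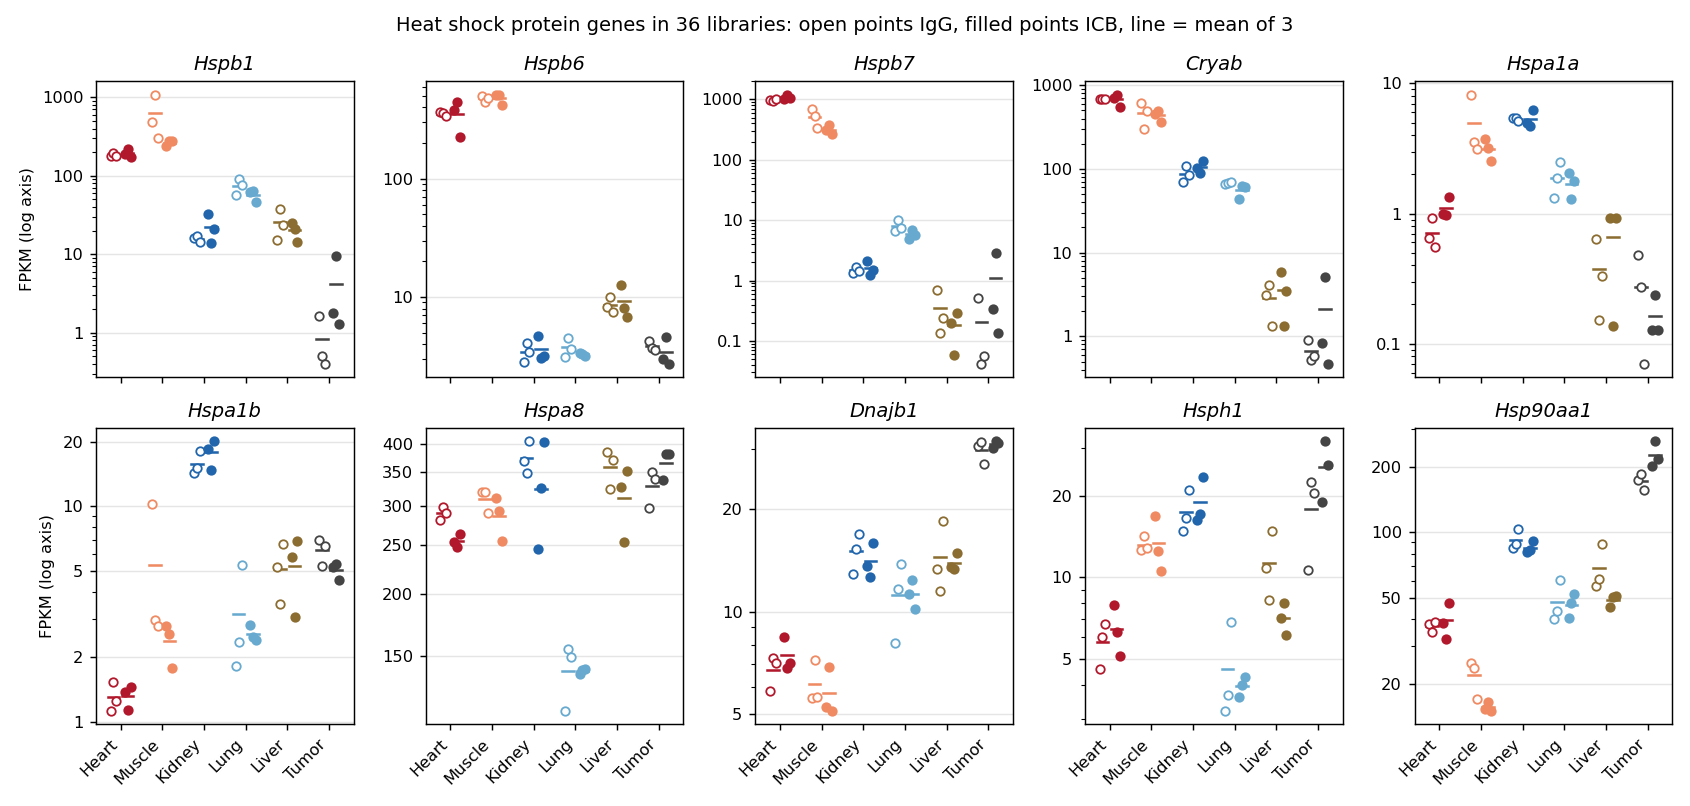
FPKM of the 10 genes on log axes in each of the 36 libraries, by tissue; open points are IgG, filled points are ICB and short lines are means of 3. The small heat shock proteins in the upper row span 2 to 3 orders of magnitude or more between heart or muscle and tumor, while Hspa8 lies between 117 and 404 FPKM throughout.

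Hspb7, a cardiovascular small heat shock protein known to bind filamin C (GRCm38 chr4:141420779-141425311, plus strand), was the most restricted. In heart it stood at 927, 1012 and 1205 FPKM (lowest, median and highest of 6 libraries), a mean of 1031 ± 96.3 (SD, n = 6). Muscle followed with 264, 360 and 685 FPKM, mean 418 ± 160. Every heart library was above every muscle library, and every muscle library was far above lung, where the mean was 6.96 ± 1.80 FPKM. Kidney had 1.53 ± 0.30 FPKM. Tumor (0.66 ± 1.10) and liver (0.27 ± 0.22) rested on few reads, 4 to 295 per tumor library and 2 to 20 per liver library, and their ranges overlapped.

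Cryab, the alpha B-crystallin chaperone of lens and muscle (chr9:50751325-50756636, plus strand), had the same leading tissues but was also plentiful in kidney and lung. Its heart libraries held 550, 684 and 775 FPKM, mean 680 ± 73.1 (SD, n = 6), and its muscle libraries 301, 471 and 610 FPKM, mean 451 ± 108. The ranges of heart and muscle overlapped. Kidney followed at 96.3 ± 19.7 FPKM and lung at 61.7 ± 9.28, each separate from its neighbours in the order. Liver was at 3.20 ± 1.71 and tumor at 1.4 ± 1.81 FPKM, with overlapping ranges. These values rested on 24 to 95 reads per liver library and 22 to 278 per tumor library. Tumor ICB replicate 2 held 5.08 FPKM, against 0.47 to 0.92 in the other tumor libraries.

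Hspb6, a small heat shock protein phosphorylated by cyclic nucleotide-dependent kinases (chr7:30552178-30555443, plus strand), was level in muscle, with 423, 491 and 514 FPKM (mean 479 ± 37.7), and lower in heart, with 224, 363 and 444 FPKM (mean 351 ± 72.1). Of the heart libraries only ICB replicate 2, at 444 FPKM, reached into the muscle range. Liver was next at 8.91 ± 2.18 FPKM and separate from both neighbours. Tumor (3.65), kidney (3.55) and lung (3.52 FPKM) did not differ beyond their spread.

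Hspb1, known as Hsp25 in the mouse, caps actin filaments and is phosphorylated in the p38 stress pathway (chr5:135887919-135889563, plus strand). It was highest in muscle, at 237, 293 and 1084 FPKM with a mean of 445 ± 325, and the muscle range was widened by IgG replicate 2 at 1084 and IgG replicate 1 at 486 FPKM. Heart was separate and narrow, at 171, 185 and 221 FPKM (mean 189 ± 17.4). Lung held 66.2 ± 16.0 FPKM. Liver (22.9 ± 8.44) and kidney (19.1 ± 7.01) overlapped, and tumor was lowest at 0.40, 1.47 and 9.43 FPKM. In the annotation, 48.8% of the 50-base words of Hspb1 transcripts were shared with the pseudogene Hsp25-ps1, so its values carry an uncertain division of reads between the copies.

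The inducible Hsp70 pair, Hspa1a (chr17:34969190-34972156, minus strand) and Hspa1b (chr17:34956436-34959238, minus strand), are neighbouring genes without introns that encode nearly the same protein. The promoters of both are shown with that of Hspb1 and that of Hsph1, because all 4 windows hold a paired heat shock element, the letters GAANNTTC or TTCNNGAA, of the kind that HSF1 binds. Sequences are from RefSeq (GRCm38.p6), 250 bases before to 50 after the start site, written 5′ to 3′ on the gene's strand, with matches to either set of letters in capitals and positions counted from the start site as 0.
Hspa1a, chr17:34972107-34972406: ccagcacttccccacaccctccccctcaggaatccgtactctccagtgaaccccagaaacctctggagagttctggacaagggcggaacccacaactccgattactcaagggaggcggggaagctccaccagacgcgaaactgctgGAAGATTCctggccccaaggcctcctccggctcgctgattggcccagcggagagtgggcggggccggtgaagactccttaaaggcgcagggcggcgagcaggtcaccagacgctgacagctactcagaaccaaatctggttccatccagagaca
Hspa1b, chr17:34959189-34959488: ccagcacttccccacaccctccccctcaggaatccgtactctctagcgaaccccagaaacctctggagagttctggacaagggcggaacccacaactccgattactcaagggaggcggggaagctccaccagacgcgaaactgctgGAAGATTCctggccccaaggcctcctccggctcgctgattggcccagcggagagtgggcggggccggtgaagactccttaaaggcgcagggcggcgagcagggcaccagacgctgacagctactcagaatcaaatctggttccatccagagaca
Hspb1, chr5:135887669-135887968: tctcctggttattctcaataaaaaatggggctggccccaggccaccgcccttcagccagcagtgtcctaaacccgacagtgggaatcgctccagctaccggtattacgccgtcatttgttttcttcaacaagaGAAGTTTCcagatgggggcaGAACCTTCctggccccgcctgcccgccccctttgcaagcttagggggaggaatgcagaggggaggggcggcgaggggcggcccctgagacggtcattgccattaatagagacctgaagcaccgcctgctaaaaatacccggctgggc
Hsph1, chr5:149636287-149636586: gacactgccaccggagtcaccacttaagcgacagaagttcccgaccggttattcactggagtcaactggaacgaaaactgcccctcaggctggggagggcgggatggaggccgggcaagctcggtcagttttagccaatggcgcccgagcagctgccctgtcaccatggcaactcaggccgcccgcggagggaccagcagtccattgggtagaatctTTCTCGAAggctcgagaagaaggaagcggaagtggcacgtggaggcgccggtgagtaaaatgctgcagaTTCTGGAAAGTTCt
The Hspa1a and Hspa1b windows were identical at 296 of 300 bases, and both had 1 match, GAAGATTC, at position -104 from the start site. Hspb1 had 2 matches, at -117 and -97. Hsph1 had 3 in the window shown, the first of its 2, at -33, 36 and 41, the last 2 sharing 3 letters and forming together the triple element TTCNNGAANNTTC. Both sets of paired letters read the same on either strand. A paired element was found in 15.1% of 32851 mouse promoters of this length, and a triple element (GAANNTTCNNGAA or TTCNNGAANNTTC) in 0.603%. Of the other members with an entry, Hspb6 had 1 match in the second of its 2 windows, at -120, and none was found in the windows of Hspb7 and Dnajb1. Cryab, Hspa8 and Hsp90aa1 had no entry. A match is a description of letters and not of a bound site.

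Although their promoters differ by only 4 bases, Hspa1a and Hspa1b stood in very different proportion between tissues. Hspa1b reads exceeded Hspa1a in tumor, where the ratio of their FPKM was 14.6, 29.4 and 93.5 (lowest, median and highest of 6 libraries), and in liver, where it was 6.35, 14.1 and 23.3. In kidney the ratio was 2.63 to 3.72. Heart had 1.09 to 2.26, lung 1.25 to 2.16 and muscle 0.697 to 1.25. The tumor and liver ranges overlapped each other and lay above every library of the other 4 tissues, and kidney lay above heart, lung and muscle. In the tumor Hspa1a rested on 8 to 47 reads per library and in liver on 5 to 37, against 407 to 707 and 105 to 263 reads for Hspa1b, which makes the ratio itself imprecise in those tissues. Between 58.8% and 62.3% of the 50-base words of these 2 genes occur in the partner. How the authors' counting placed shared reads can therefore also set this ratio, and bears on the level of each gene.

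**Figure D2:**
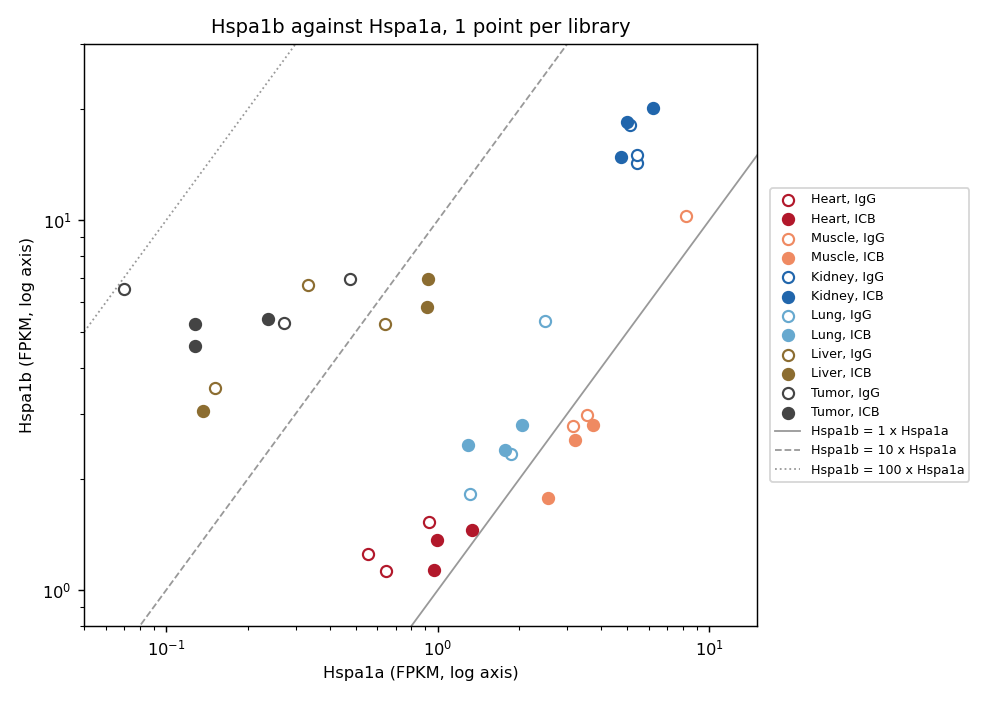
Hspa1b against Hspa1a in FPKM on log axes, 1 point per library coloured by tissue, open for IgG and filled for ICB, with grey lines where Hspa1b is 1, 10 and 100 times Hspa1a. All 6 tumor and 3 of the 6 liver libraries lie above the 10-fold line, while muscle and heart lie near the line of equality.

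By level, Hspa1b was highest in kidney at 14.3, 16.5 and 20.1 FPKM (mean 16.8 ± 2.40, SD, n = 6), separate from tumor at 5.67 ± 0.89 FPKM, and lowest in heart at 1.31 ± 0.17. Liver (5.21), muscle (3.86) and lung (2.86 FPKM) lay between with overlapping ranges. Hspa1a was at 5.31 ± 0.52 FPKM in kidney, 4.07 ± 2.08 in muscle and 1.79 ± 0.45 in lung, and under 1 on average in heart (0.91), liver (0.52) and tumor (0.22). The muscle mean was raised by IgG replicate 1, at 8.23 FPKM for Hspa1a and 10.3 for Hspa1b, while the other 5 muscle libraries held 2.54 to 3.75 and 1.77 to 2.98. Around the means of the 12 groups the pair varied together, with r = 0.85 over the 36 libraries, a description in which shared reads take part.

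Hspa8, the constitutive Hsc70 that also uncoats clathrin vesicles (chr9:40800984-40810087, plus strand), was the member with the steadiest FPKM. Kidney (350 ± 59.0), tumor (348 ± 31.3), liver (336 ± 46.5), muscle (298 ± 24.5) and heart (273 ± 20.3 FPKM, n = 6 each) overlapped from each to the next. Lung was separate at 117, 141 and 155 FPKM. Within heart its spread was at percentile 2.2 of the genes tested there, and within muscle at percentile 9.5. Per FPKM, Hspa8 exceeded Hspa1a and Hspa1b together by a median of 119 times in heart, 62.9 times in tumor and 16.9 times in kidney. How reads shared by Hspa1a and Hspa1b were counted also bears on these ratios. Its transcripts share 50-base words with 14 other genes, most of all 34.6% with the predicted gene Gm15459.

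Hsp90aa1, the stress-responsive form of cytosolic Hsp90 (chr12:110690605-110702728, minus strand), was highest in tumor at 157, 194 and 263 FPKM, mean 200 ± 37.6. Kidney followed at 88.8 ± 7.95 FPKM, with no overlap with tumor. Liver (58.8), lung (47.2) and heart (38.4 FPKM) came next, overlapping from each to the next, and muscle was separate and lowest at 18.9 ± 4.38. Its constitutive partner Hsp90ab1 was also highest in tumor, at 898 ± 68.3 FPKM, but next highest in muscle, at 551 ± 81.8. The ratio of Hsp90aa1 to Hsp90ab1 was lowest in muscle, at 0.0298, 0.0337 and 0.0413, then in heart at 0.0759, 0.0916 and 0.110, while in kidney it was 0.224, 0.242 and 0.264. Of the 50-base words of Hsp90aa1, 41.8% are shared with the predicted gene Gm12346.

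Dnajb1, the J-domain partner that hands substrates to Hsp70 (chr8:83608193-83612653, plus strand), was very even within tumor, at 27.2, 30.97 and 31.7 FPKM (mean 30.4 ± 1.69), and every tumor library was above all other libraries. Kidney (14.5), liver (14.2), lung (11.2), heart (7.10) and muscle (5.95 FPKM) followed with overlapping neighbours. Hsph1, the Hsp110 exchange factor for Hsp70 (chr5:149614287-149636376, minus strand), was at 10.6, 21.5 and 31.8 FPKM in tumor (mean 21.7 ± 7.13), 18.2 ± 3.33 in kidney, 13.3 ± 2.11 in muscle, 9.17 ± 3.20 in liver, 6.10 ± 1.18 in heart and 4.27 ± 1.31 in lung. No pair of neighbours in the order of Hsph1 was separate.

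The order between tissues depends on how libraries are scaled, since the sums of FPKM ranged from 202450 to 216565 in tumor libraries and from 664549 to 924631 in liver libraries. When every library was brought to the same sum (the TPM scale), 9 of the 10 members had the same leading tissue. Hspa8 was the exception, with a tumor mean of 1649 TPM against 944 in kidney and 445 in liver. Orders below the leading tissue also changed for several members. By mean TPM, Hspb6 in liver (11.6) fell below tumor (17.3) and lung (14.6). Hspa8 in lung (589) lay above muscle (552), heart (503) and liver. Hsp90aa1 in lung (200) exceeded liver (78.9), Dnajb1 in lung (47.3) exceeded kidney (39.2), and Hspb1 in kidney (52.2) exceeded liver (30.2). The orders and separate ranges given above are thus those of the FPKM scale.

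The tissue levels were then tested with limma on log2(FPKM + 1) in the IgG libraries, with adjusted p-values over all 16123 genes expressed in at least 1 tissue, and a fold on this scale understates the change of low genes. For heart and muscle together against kidney, lung and liver, 7 of 10 members passed, where 73.3% of all genes passed. The 4 small heat shock proteins were higher in the striated tissues: Hspb7 by 7.81 ± 0.19 (log2 difference ± SE, 3 libraries per tissue, adjusted p = 8.98e-25), Hspb6 by 6.14 ± 0.13, Cryab by 4.31 ± 0.24 and Hspb1 by 3.34 ± 0.27. Hsp90aa1 (-1.19 ± 0.11), Hspa1b (-1.04 ± 0.19) and Dnajb1 (-0.94 ± 0.10) were lower. Hspa1a (0.09 ± 0.14, adjusted p = 0.599), Hspa8 (0.17 ± 0.09, 0.0982) and Hsph1 (-0.12 ± 0.16, 0.532) did not pass. On the TPM scale the median of all genes moved from -0.10 to -0.44, Hspa1a and Hspa8 turned to -0.28 and -0.21, and Hsph1 passed at -0.47. Without muscle IgG replicate 1, which had the highest Hspa1a, its difference was -0.09.

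Heart and muscle themselves differed for 6 of 10 members, where 43.1% of all genes passed. Hspb7 was higher in heart by 0.95 ± 0.29 (adjusted p = 0.00778) and Hsp90aa1 by 0.75 ± 0.17 (0.000458). Higher in muscle were Hspa1a (-1.71 ± 0.22, 2.75e-07), Hspb1 (-1.56 ± 0.42, 0.00341), Hspa1b (-1.27 ± 0.30, 0.000927) and Hsph1 (-1.08 ± 0.25, 0.00078). Cryab (0.61 ± 0.37), Hspb6 (-0.42 ± 0.20), Dnajb1 (0.12 ± 0.16) and Hspa8 (-0.10 ± 0.15) did not pass. The calls for 2 small heat shock proteins rested on single muscle libraries. Hspb1 no longer passed without IgG replicate 2 (-1.06), and Hspb7 no longer passed without IgG replicate 3 (0.68), nor with a pseudocount of 0.1 (0.96) or on the TPM scale (0.89). Hspa1b still passed without IgG replicate 1, at -0.75. Hspb6 passed on the TPM scale, at -0.48.

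For the tumor against the mean of the 5 organs, 8 of 10 members passed, where 79.1% of all genes passed. Lower in tumor were Cryab (-5.79 ± 0.29), Hspb1 (-5.48 ± 0.33), Hspb7 (-4.51 ± 0.22), Hspb6 (-2.73 ± 0.16) and Hspa1a (-1.24 ± 0.17). Hsp90aa1 was higher by 1.84 ± 0.13 (adjusted p = 1.93e-13), Dnajb1 by 1.49 ± 0.12 and Hsph1 by 0.82 ± 0.19. Hspa1b (0.40 ± 0.23, adjusted p = 0.117) and Hspa8 (0.24 ± 0.11, adjusted p = 0.0579) did not pass. On the TPM scale the median of all genes moved from -0.12 to 0.89, and all 10 members then passed, Hspa1b at 1.58 and Hspa8 at 1.41, with no change of sign.

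**Figure D3:**
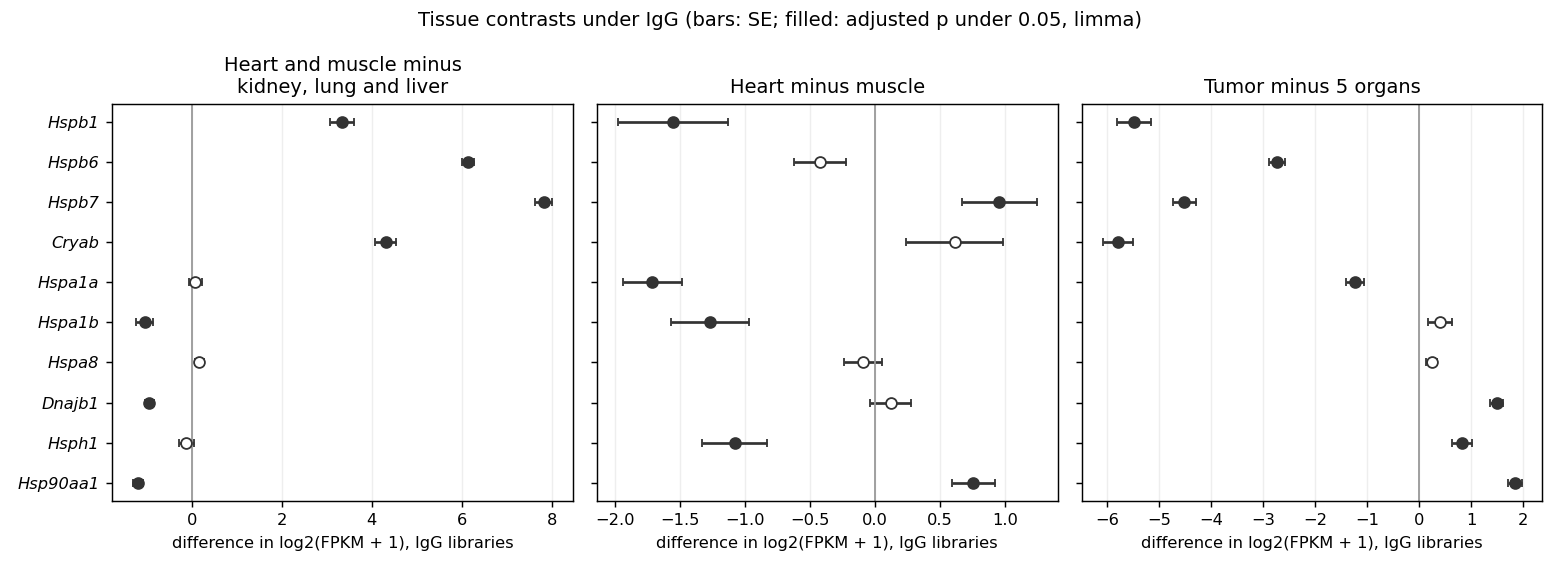
Differences in log2(FPKM + 1) between tissues in the IgG libraries for the 10 genes, points with SE; filled points have an adjusted p under 0.05 by limma. The small heat shock proteins lie right of 0 in the first panel and left of 0 in the third, and Hsp90aa1, Dnajb1 and Hsph1 lie right of 0 in the third.

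The wider chaperone network was read from lists of gene families. Of the other small heat shock proteins, 7 were listed and 5 were in the table. Hspb2, which lies beside Cryab in the genome and is a muscle chaperone, had 57.1 ± 9.35 FPKM in heart and 54.0 ± 9.51 in muscle (SD, n = 6) and at most 2.66 on average elsewhere. Hspb8, a partner of Bag3 in chaperone-assisted autophagy, was alike in muscle (191 ± 19.7), heart (191 ± 14.7) and liver (180 ± 29.9 FPKM) and low in kidney (2.22 ± 0.63). Bag3 itself had 91.7 ± 3.82 FPKM in heart, 82.8 ± 24.8 in muscle and 13.3 to 21.9 on average elsewhere. All 8 subunits of the cytosolic chaperonin TRiC, which folds actin and tubulin, were higher in tumor than in the organs, and all 8 passed (median 1.04, against -0.12 for all genes), where 79.1% of all genes passed and 35.7% passed as higher. On the TPM scale the TRiC median was 2.23 and that of all genes 0.89. Of 12 Hsp90 co-chaperone genes, Hsp90ab1 included, 5 passed as higher and 1 as lower in tumor. That is below the 79.1% of all genes that passed in either direction, and near the 35.7% that passed as higher. On the TPM scale 11 of the 12 passed as higher and 1 as lower. Hsf1, which drives the heat shock response, had 38.8 ± 8.43 FPKM in muscle and at most 17.0 on average elsewhere.

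Similarity over the 36 libraries was measured by Pearson's r of log2(FPKM + 1) among 14249 genes, as a description, since libraries of 1 tissue share its cell makeup. The genes most like Hspb7 were Jph2, Actn2 and Art3 (r = 0.99 each), of which Actn2 encodes the Z-disc protein alpha-actinin and Jph2 a junction protein of the sarcoplasmic reticulum. Hspb6 was most like Smyd1, a muscle methyltransferase, and Asb2 (0.99 each), Cryab most like Grb10 (0.98), and Hspb1 most like Prickle3 (0.96) and the lipases Lipe and Pnpla2 (0.94 each). Dnajb1 was most like Ptbp1 and Actr2 (0.96) and had r = 0.95 with Hsp90aa1. Hspa8 was most like Hspe1 and Afg3l1 (0.90 each), the first of which is the mitochondrial co-chaperonin. With the group means removed, Hspb7 varied most closely with Tnnt2 (0.88), Myom1 (0.87) and Des (0.82), and with Hspb1 (0.64) and Cryab (0.65). Much of this rested on tumor ICB replicate 2. Without that library the values were 0.72 for Tnnt2, 0.79 for Myom1, 0.52 for Des, 0.35 for Hspb1 and 0.33 for Cryab. Over all 36 libraries, again with the group means removed, Hsp90aa1 varied most closely with Hspa4 (0.79), an Hsp110 gene. Hsp90aa1 had 0.58 with Dnajb1, which had 0.55 with Hsph1.

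The second question was whether these genes differed between ICB and IgG. In none of the 6 tissues did a member pass the limma test, adjusted over all genes tested in that tissue, and limma-voom on the recovered reads also called 0 members in each. Few genes of any kind passed: 0.0168% of those tested in kidney, and 0% in each of the other 5 tissues. Genes with an unadjusted p under 0.05 numbered 783 of 11398 in tumor (6.87%), 608 of 11410 in muscle (5.33%) and 555 of 12747 in lung (4.35%). There were 521 of 11476 in heart (4.54%), 441 of 11901 in kidney (3.71%) and 379 of 11257 in liver (3.37%). Among them were 3 of the 10 members tested in muscle, 1 of 7 in tumor and 1 of 8 in liver, and none of the 10 in kidney, 10 in lung and 9 in heart. Members whose 3 ICB and 3 IgG libraries did not overlap numbered 1 of 7 in tumor, where this held for 13.1% of all genes tested, and 2 of 10 in muscle (11.6%). There were 2 of 9 in heart (9.76%), 0 of 10 in kidney (8.66%), 1 of 10 in lung (8.65%) and 2 of 8 in liver (6.84%). These counts are those of the FPKM scale. On the TPM scale the groups of the members counted in heart, lung and liver overlapped. The genes not tested for low values were Hspb7, Cryab and Hspa1a in tumor, Hspb7 and Hspa1a in liver and Hspa1a in heart.

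**Figure D4:**
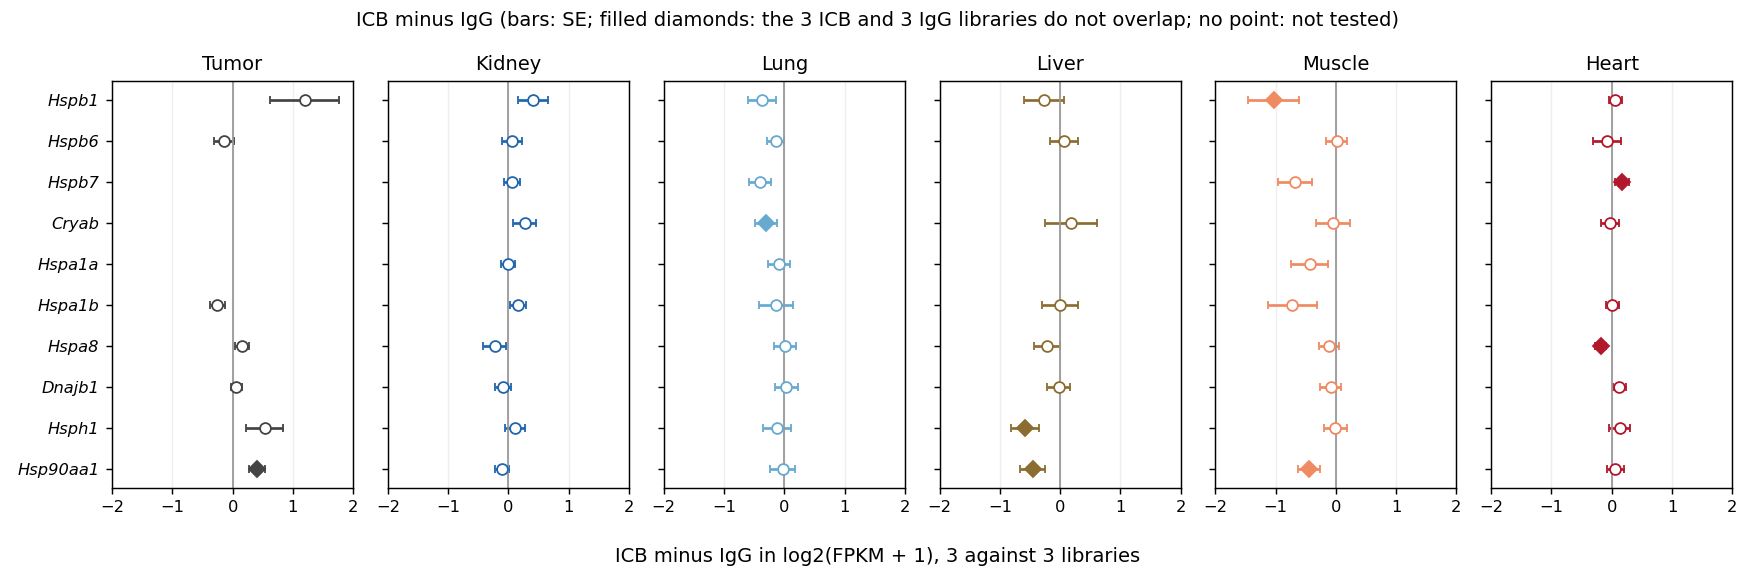
ICB minus IgG in log2(FPKM + 1) for each gene and tissue, with SE; filled diamonds mark genes whose 3 ICB and 3 IgG libraries do not overlap, and no point means that the gene was too low to be tested. Hspb1 in tumor (1.2) and muscle (-1.04) are the values farthest from 0.

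In the tumor, 5 of the 7 tested members were higher with ICB and 2 lower, with a median difference of 0.15 against -0.01 for all genes. Hspb1, among the 5 higher, passed the filter through the ICB libraries, as given below, so the count and median partly reflect the filter. Hsp90aa1 read 174, 185 and 157 FPKM in the IgG libraries and 203, 263 and 219 in the ICB libraries. All 3 ICB values were above all 3 IgG values, a difference of 0.40 ± 0.13 (SE, 95% interval 0.09 to 0.71), which did not pass (adjusted p = 0.697, limma). Hsph1 read 10.6, 22.6 and 20.5 FPKM with IgG and 18.9, 31.8 and 26.0 with ICB, a difference of 0.53 ± 0.30 with overlapping groups, or 0.21 without IgG replicate 1, which held the 10.6. Dnajb1, with means of 29.75 and 31.1 FPKM, differed by 0.06 ± 0.10. TRiC subunits were higher in 8 of 8 cases (median 0.14) and Hsp90 co-chaperones in 8 of 11 (median 0.13), and 0 of either list passed.

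Hspb1 had the largest tumor difference, 1.2 ± 0.57 (95% interval -0.16 to 2.56, adjusted p = 0.722). Its values were 1.64, 0.50 and 0.40 FPKM with IgG and 1.78, 9.43 and 1.31 with ICB. The IgG values rested on 56, 18 and 16 reads. Of the IgG libraries only replicate 1 reached FPKM 1, so the gene passed the filter through the ICB libraries, the group where it was higher. The 9.43 belonged to ICB replicate 2, which also had the highest Hspb7 (2.88 against 0.04 to 0.51 FPKM in the other 5) and the highest Cryab (5.08 against 0.47 to 0.92). In the same library all 9 skeletal muscle markers were higher than in any other tumor library. Acta1, the skeletal alpha-actin, was at 180 FPKM against 1.21 to 8.30, and Atp2a1, the calcium pump of fast fibres, at 31.6 against 0.31 to 0.77. The cardiomyocyte sum was 3.59 FPKM there against 1.99 to 15.1 in the other tumor libraries, and the fat cell sum was 12.9 FPKM, with 11.97 in ICB replicate 3 and 1.49 to 7.04 in the other 4. Without ICB replicate 2 the Hspb1 difference was 0.52 and that of Hsp90aa1 0.29. The part of muscle tissue in the tumor values was not tested otherwise.

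In muscle, 9 of 10 members were lower with ICB, with a median of -0.28 against 0.00 for all genes. Hspb1 read 486, 1084 and 304 FPKM with IgG and 237, 281 and 277 with ICB. The groups did not overlap, and the difference was -1.04 ± 0.42 (95% interval -2.01 to -0.06, adjusted p = 0.876, limma), or -0.54 without IgG replicate 2. Hsp90aa1 read 25.1, 23.7 and 17.2 FPKM against 15.3, 16.7 and 15.2, also without overlap, with a difference of -0.44 ± 0.18. Hspb7 read 685, 530 and 342.03 FPKM against 307, 377 and 264, a difference of -0.67 ± 0.28 with IgG replicate 3 below ICB replicate 2. The Hspa1b difference of -0.73 ± 0.41 was -0.21 without IgG replicate 1, the library with high Hspa1a and Hspa1b.

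Closest to 0 in muscle were Hsph1 (13.2 and 13.3 FPKM for IgG and ICB), Hspb6 (476 and 482), Cryab (466 and 436) and Dnajb1 (6.14 and 5.76), all with overlapping groups. Within muscle the spread of Hspb1 was at percentile 95.5 of the genes tested and that of Hspb6 at 13.2. Other cells' markers moved between the muscle groups as well. The fat cell sum was 230 to 623 FPKM with IgG and 167 to 229 with ICB, and 6 of 6 macrophage markers were higher with ICB, with sums of 71.8 to 177 FPKM under IgG and 117 to 332 under ICB. All 5 erythroid markers were lower with ICB, with sums of 978 to 1516.5 FPKM under IgG and 284 to 877 under ICB. The skeletal muscle sum overlapped (82444 to 109353 against 72940 to 101909 FPKM). Their part in the differences of the heat shock genes was not tested.

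In the liver, 5 of 8 tested members were lower with ICB and 3 higher (median -0.12 against -0.02 for all genes). Hsph1 read 10.8, 8.23 and 14.9 FPKM with IgG and 7.04, 7.99 and 6.12 with ICB, without overlap, a difference of -0.58 ± 0.22 (95% interval -1.10 to -0.06, adjusted p = 0.999, limma), or -0.38 without IgG replicate 3. Hsp90aa1 read 56.6, 60.8 and 88.3 FPKM against 45.4, 50.7 and 50.9, also without overlap, a difference of -0.45 ± 0.21, or -0.26 without IgG replicate 3. Hspb1, with 25.5 ± 11.3 and 20.2 ± 5.4 FPKM (SD, n = 3), differed by -0.27 ± 0.33. Its sign turned to 0.05 without IgG replicate 2. Bag3 in the same tissue was lower in all 3 ICB libraries (-0.48 ± 0.17, 21.7 and 15.3 FPKM on average) and did not pass. Groups did not overlap, in either direction, for 6.84% of all genes tested in liver. The macrophage sum in these libraries was 284 to 453 FPKM with IgG and 371 to 1063 with ICB, and its part was not tested.

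In the lung, 8 of 10 members were lower with ICB (median -0.13 against -0.01 for all genes). Cryab read 66.5, 67.9 and 69.2 FPKM with IgG and 44.0, 62.3 and 60.5 with ICB, without overlap, a difference of -0.30 ± 0.18, or -0.14 without ICB replicate 1. Hspb7 (-0.41 ± 0.18) and Hspb1 (-0.37 ± 0.23) overlapped between the groups. Without IgG replicate 2 they were -0.25 and -0.21, and Hspb1 was also -0.21 without ICB replicate 3. Lung epithelium markers were lower in 6 of 6 cases, their sum being 33938 to 54964 FPKM with IgG and 20094 to 31164 with ICB, and the cardiomyocyte sum was 111 to 126 against 60.3 to 109 FPKM. All 5 erythroid markers were lower with ICB, with a median difference of -2.45 and sums of 1577 to 15636 FPKM under IgG and 346.3 to 2113 under ICB. Macrophage sums were 128 to 144 FPKM with IgG and 191 to 233 with ICB. T cell markers were higher on average with ICB in 6 of 6 cases, but their sums overlapped (7.21 to 17.7 and 11.9 to 21.3 FPKM). The part of these cells in the differences was not tested. On the TPM scale the median of all lung genes moved from -0.01 to 0.20, and the differences of Cryab, Hspb7 and Hspb1 were -0.08, -0.24 and -0.15. The Cryab groups overlapped on that scale, with ICB replicate 2 at 257 TPM and IgG replicate 2 at 236. By TPM, 7 of 10 members were higher and 3 lower in lung, with a median of 0.06, so the direction of the group depends on the scaling.

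In kidney, 6 of 10 members were higher (median 0.06 against -0.02 for all genes) and no groups were separate. On the TPM scale 9 of 10 were higher (median 0.17 against 0.09 for all genes). The kidney Hspb1 libraries read 16.1, 16.9 and 14.4 FPKM with IgG and 32.5, 13.9 and 21.0 with ICB, a difference of 0.41 ± 0.26, or 0.11 without ICB replicate 1, which held the 32.5, and 0.70 without ICB replicate 2. Cryab (0.27 ± 0.19) and Hspa8 (-0.23 ± 0.19) followed in size and rested on single libraries as well. Kidney Cryab fitted without IgG replicate 1 gave 0.12, leaving out ICB replicate 3 gave 0.14 and leaving out IgG replicate 2 gave 0.44, and Hspa8 was -0.04 without ICB replicate 1 and -0.40 without ICB replicate 3. Markers of other cells moved in kidney too. Macrophage sums were 46.8 to 50.7 FPKM with IgG and 57.7 to 115 with ICB, and erythroid sums were 497 to 693 and 212 to 349 FPKM. All 5 tested fat cell markers were higher with ICB, and ICB replicate 1, the library with the highest Hspb1, had the highest fat cell sum, 106 FPKM against 10.9 to 55.5 in the other 5. The part of these cells in the kidney differences was not tested.

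In heart, 6 of 9 tested members were higher (median 0.06 against 0.00 for all genes), and 8 of 9 on the TPM scale (median 0.16 against 0.09). Hspa8 read 281, 298 and 290 FPKM with IgG and 254, 248 and 263 with ICB, without overlap, a difference of -0.18 ± 0.09 (95% interval -0.39 to 0.02, adjusted p = 0.997, limma). Heart Hspb7 read 970, 927 and 1008 FPKM with IgG and 1016, 1205 and 1062 with ICB, higher in all 3 ICB libraries by 0.17 ± 0.12, or by 0.10 without ICB replicate 2. On the TPM scale the groups overlapped for both genes. ICB replicate 3 held 583 TPM of Hspa8, against 498 to 525 with IgG. ICB replicate 1 held 1713 TPM of Hspb7, against 1618 to 1825 with IgG. Hsph1 (0.13 ± 0.17) overlapped. The erythroid sum was 749 to 3884 FPKM in the IgG hearts and 414 to 549 in the ICB hearts, and the cardiomyocyte sums overlapped (13776 to 15216 and 13446 to 15396 FPKM). The part of blood in the heart differences was not tested. Hspa1a, too low in heart to be tested, had 0.65, 0.93 and 0.55 FPKM with IgG and 0.99, 0.97 and 1.34 with ICB, from 30 to 74 reads per library.

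**Figure D5:**
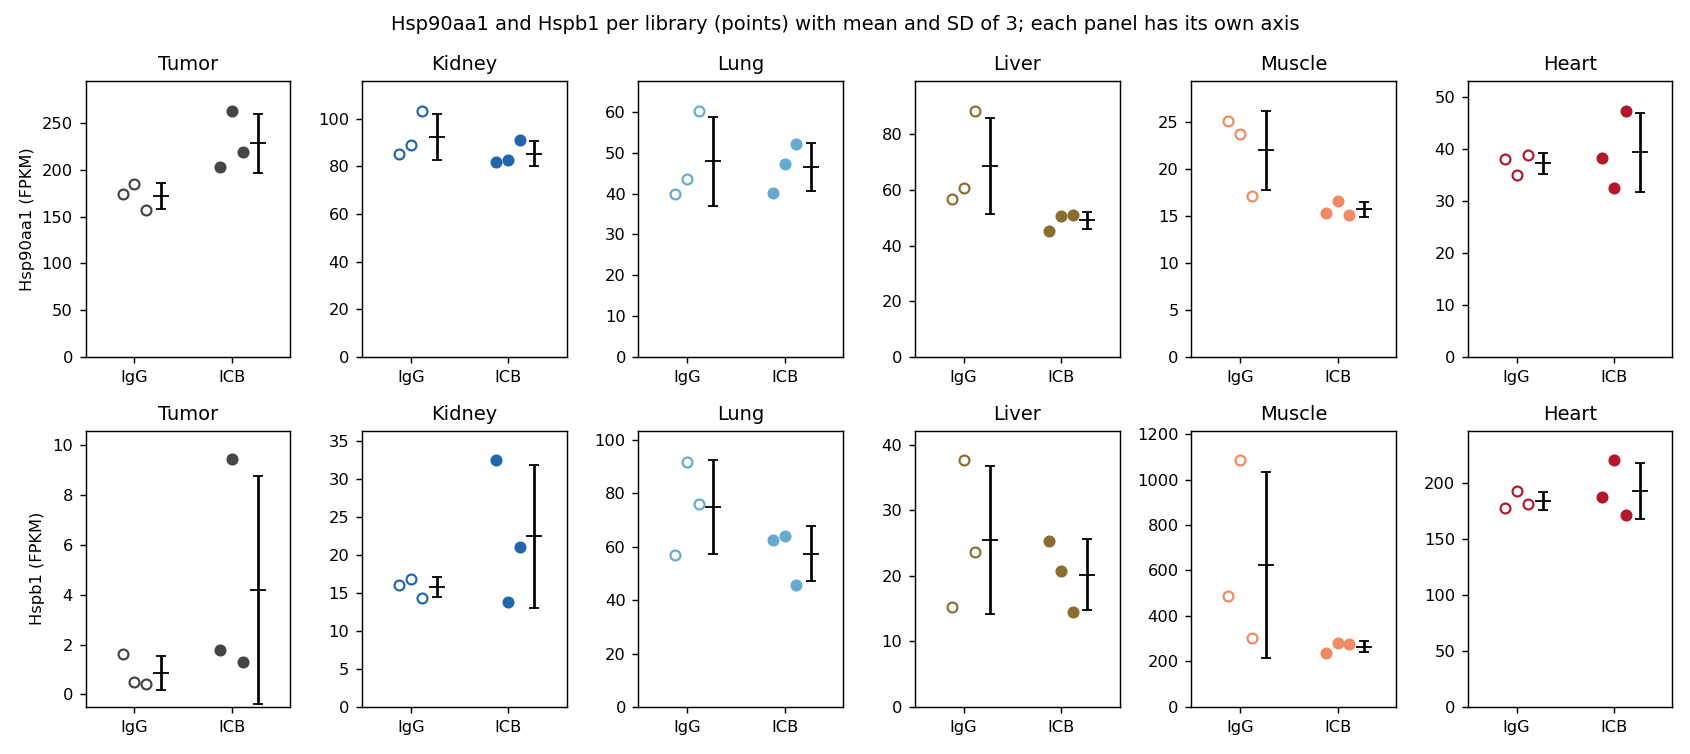
FPKM of Hsp90aa1 (upper row) and Hspb1 (lower row) in each library by tissue and treatment, with mean and SD of 3 beside the points and a separate axis in each panel. For Hsp90aa1 the ICB points lie above the IgG points in tumor and below them in liver and muscle, and for Hspb1 single libraries set the spread in tumor (9.43) and muscle (1084).

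Averaged over the 5 organs, 1 of 8 testable members was higher and 7 lower with ICB, and 0 passed, where 0.258% of all genes passed. Hsp90aa1 differed by -0.19 ± 0.07 (adjusted p = 0.350, limma, all 36 libraries) and Hspa8 by -0.15 ± 0.07 (adjusted p = 0.505). A test of whether the treatment difference varied between the 6 tissues called 0 members, where 0.0868% of all genes passed. The smallest p-values among members belonged to Hsp90aa1 (F = 3.79, adjusted p = 0.516) and Hspb1 (F = 3.24, adjusted p = 0.656). Limma-voom called 0 members in either test. In the limma fit on log2(FPKM + 1), 794 of 8924 genes in the average and 999 of 16123 in the test of variation had an unadjusted p under 0.05. Among them were Hsp90aa1 and Hspa8 in the average, and Hsp90aa1 and Hspb1 in the test of variation.

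Of the other chaperone lists, 0 genes passed in any single tissue. The TRiC subunits lay on 1 side of 0 in 5 tissues: 8 of 8 were higher with ICB in tumor and lung, and 8 of 8 lower in kidney (median -0.08, but 0.04 with 6 of 8 higher on the TPM scale), liver (-0.08) and muscle (-0.24, where the median of all genes was 0.00). In muscle Cct3 (-0.37 ± 0.17), Cct7 (-0.27 ± 0.15) and Cct2 (-0.25 ± 0.16) were lower in the 3 ICB libraries than in every IgG library. Ptges3, the p23 co-chaperone of Hsp90, was higher in all 3 ICB tumors (0.33 ± 0.14) and lower in all 3 ICB muscle libraries (-0.32 ± 0.16). These genes were named for a small p within their lists. Of all genes tested, 13.1% in tumor and 11.6% in muscle had groups that did not overlap, in either direction. The heat shock factors and their regulators were lower in 4 of 4 tested cases in muscle (median -0.34), Hsf1 by -0.39 ± 0.19, with overlapping groups.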

How the data were processed

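Frozen tissue was extracted with TRIzol and 1 ug of total RNA per library was prepared with a TruSeq kit, per the labels' protocols. Reads were processed with HISAT2 2.1.0 and edgeR on build mm10, per the submitters' processing notes. The counter, annotation and strand setting were not given in the sources used here. The authors deposited FPKM values, 18781 rows by 36 libraries. Whole reads were recovered from them for 18781 of 18781 rows (tolerance 0.001 reads), which gave 19005189 to 25512980 reads per library and scaling factors of 0.532 to 1.6. The 15 rows without a gene name (0.0834% to 0.374% of reads) and 3 symbols held by 2 rows each were left out, so 18760 genes were used. No pair of replicates was a duplicate, the lowest chi-square per gene over 36 pairs being 10.3.

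ICB and IgG were compared within each tissue with limma 3.58.1 (R 4.3.3) on log2(FPKM + 1) with a mean-variance trend, after dropping genes that reached FPKM 1 in fewer than 3 of the tissue's 6 libraries. Tissue levels under IgG, the organ average and the variation between tissues came from 1 fit of 12 group means in 36 libraries. Tests were two-sided, with Benjamini-Hochberg adjustment over all genes and a threshold of 0.05. The scripts were tested on simulated data. Other settings were limma-voom on recovered reads, pseudocount 0.1, no filter, no trend, median-of-ratios and TPM scaling, a common fit, and each library left out. All members were described, and treatment differences are given for members whose groups did not overlap and for the 3 with the largest difference per tissue. In other chaperone lists, up to 3 genes per comparison were named by p. The members and lists were chosen with earlier results of these data known. Tables and figures were made with Python 3.11.15, pandas 2.3.3, numpy 2.4.6 and matplotlib 3.10.9.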

Additional observations from a re-analysis of the deposited data

Results flagged for a closer look

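Hsp90aa1 lay on opposite sides in different tissues. By FPKM, every ICB library was above every IgG library in tumor (0.40 on the log2 scale) and below every IgG library in liver (-0.45) and muscle (-0.44). On the TPM scale the liver groups overlapped, with ICB replicate 2 at 76.2 TPM and IgG replicate 1 at 72.0. Tumor and muscle stayed separate on that scale. In log2(FPKM + 1), the tumor difference exceeded that of liver by 0.85 and that of muscle by 0.84. These differences between pairs of tissues were not tested. The gene was picked by searching the members for this pattern, and how many of all genes show it was not counted. Groups did not overlap, in either direction, for 13.1% of all genes tested in tumor, 6.84% in liver and 11.6% in muscle. The test of variation over all 6 tissues gave F = 3.79 and an unadjusted p of 0.00953 for Hsp90aa1, with an adjusted p = 0.516 (limma).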

How the results depend on the processing

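Counts of members that passed, or that had the same leading tissue, stayed within 1.5 times of the values given, in 84 recomputations with other settings and 216 with 1 library left out, and 0 members passed between ICB and IgG in any of them. Among single values, 331 other settings kept direction and call, 8 gained a call, 2 lost it and 2 reversed; with 1 library left out, 1181 kept both, 7 gained, 2 lost and 4 reversed. Hspa1a and Hspa8 in heart and muscle against the other organs reversed on the TPM scale (-0.28 and -0.21), and Hspa1a ranged from -0.095 (without muscle IgG replicate 1) to 0.19 with 1 library left out. Hspb1 in liver (ICB minus IgG) ranged from -0.58 to 0.046 (without IgG replicate 2) and Hsph1 in heart from -0.0092 (without ICB replicate 1) to 0.26, below 0 also without IgG replicate 1. Hspa8 in heart and muscle against the other organs passed with median-of-ratios scaling (0.22). In tumor against organs, Hspa1b also passed with limma-voom (0.56) and without lung IgG replicate 3 (0.47) or muscle IgG replicate 1 (0.50), and Hspa8 also passed without the trend (0.24) and in 5 of the fits without 1 library (0.24 to 0.31). Over all genes, the organ average called 23 genes, against 107 on the TPM scale and 68 without a filter, and the test of variation called 14, against 45 without a filter and 0 with limma-voom. No paired analysis was possible because ICB and IgG libraries of a tissue share no title number. Across tissues, same-numbered libraries had a mean correlation of deviations of 0.13 (lowest -0.13, 56 pairs), against -0.03 (lowest -0.43, 214 pairs) for differently numbered ones. Same-numbered libraries were thus more alike on average, and 32 of the 56 pairs were over 0.1, against 32 of the 214 differently numbered pairs. The labels do not say what a number marks, so the samples were not taken as paired. With the title number as a replicate block, 0 members passed in the organ average and in the test of variation, 6 between heart and muscle, 7 for heart and muscle against other organs, and 9 for tumor against organs, where Hspa8 was added at 0.24. The causes were not tested. Depth limits Hspa1a and Hspb7 in tumor and liver, which rested on 2 to 295 reads per library, and Hspb1 in tumor, which rested on 16 to 360. It also limits Cryab in tumor (22 to 278 reads) and liver (24 to 95 reads).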
